A study of Mus musculus with 8 samples.

Results

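The nuclear genes of oxidative phosphorylation were taken as all protein-coding GENCODE M21 genes whose symbol starts with Nduf, Uqcr or Atp5 or with Cox4 to Cox8, together with Sdha, Sdhb, Sdhc, Sdhd, Cyc1 and Cycs. The rule found 95 of 21924 protein-coding gene symbols: 46 of complex I, 4 of complex II, 9 of complex III, 18 of complex IV, 17 of complex V and Cycs, which encodes cytochrome c. It used names only and no measured value. RNA bound by DDX5 had been mapped by eCLIPseq, in which UV light links a protein to the RNA it touches, an antibody then pulls the protein down (immunoprecipitation, IP), and its RNA fragments are sequenced next to a size-matched input taken before the pull-down. The small intestine list came from intestinal epithelial cells (IECs) of 8-week-old female C57BL/6 wild-type mice, with 2 CLIP and 2 input samples that the authors merged into 1 list. The colon had 1 CLIP and 1 input sample named mAb and 1 of each named rAb, from C57BL/6 IECs labelled wild type. Their growth protocol instead gives Apcfl/+ CDX2Cre mice, aged 120 days, in which CDX2 sequences drive Cre in gut epithelium, and the labels do not settle this conflict. All IECs were released with EDTA, and every CLIP sample names the same catalogue number for its DDX5 antibody, so how mAb and rAb differ was not given.

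Each list gives, for every peak, a log2 fold of IP over input and a −log10 p. A peak with both values of at least 3 is called a site. The small intestine list held sites only, 1278 of them, whereas the colon lists held all called peaks, 16455 for mAb and 9146 for rAb, of which 201 and 182 were sites. Tissue, sequencing protocol and peak selection changed together, so a difference between tissues cannot be told apart from the other changes. With 1 list a group, no test was possible between lists, complexes or gene groups, and the values below are a description of these lists. Of 9 epithelial markers, all had a called peak in each colon list and 7 had a site in the small intestine. Of 7 small intestine enterocyte markers, 5 had a small intestine site and none had a colon peak. Of 5 colon epithelium markers, mAb had a peak on 5, rAb on 1 and the small intestine on none. No list held a peak on the 5 immune cell markers. Stromal and muscle markers (6 genes) had peaks on 5 (mAb), 3 (rAb) and none (small intestine); the part of stromal RNA in the colon values was not tested.

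In oxidative phosphorylation, complex I takes electrons from NADH and complex II from succinate, complex III passes them to cytochrome c, and complex IV passes them on to oxygen. The proton gradient built on the way drives complex V, the ATP synthase, whose F1 head makes ATP while a ring of c subunits turns in the inner mitochondrial membrane. Most subunits are encoded in the nucleus, made on cytosolic ribosomes and imported, and their mRNAs are abundant and short. DDX5 is a DEAD-box RNA helicase. It unwinds RNA duplexes and takes part in splicing, transcription and the processing of small RNAs.

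Sequences under the peaks that carry the results are given first, from the mouse genome build GRCm38 (RefSeq) on the strand of the gene. The first set lies under the coding sites of the small intestine in Atp5b, which encodes the catalytic β subunit of the F1 head (ENSMUSG00000025393.12, chr10:128083273-128090391, plus strand), and in Atp5g3, 1 of the 3 genes of the c subunit (ENSMUSG00000018770.9, chr2:73908447-73911326, minus strand). Capitals mark the bases that also lay under a called peak of a colon list. The stretches are Atp5b exon 2 (chr10:128084016-128084070), exon 3 (chr10:128084381-128084430) and exon 4 (chr10:128085127-128085214), and the coding part of the site in Atp5g3 exon 5 (chr2:73908596-73908667).
Atp5b exon 2: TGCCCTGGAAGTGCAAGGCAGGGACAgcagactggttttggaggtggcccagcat
Atp5b exon 3: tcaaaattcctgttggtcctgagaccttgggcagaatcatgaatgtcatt
Atp5b exon 4: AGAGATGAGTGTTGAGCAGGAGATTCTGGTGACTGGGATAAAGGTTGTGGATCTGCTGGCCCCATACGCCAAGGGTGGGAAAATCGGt
Atp5g3 exon 5: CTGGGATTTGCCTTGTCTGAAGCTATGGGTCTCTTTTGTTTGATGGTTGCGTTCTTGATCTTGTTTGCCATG

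The second set lies under the colon peaks with the best-supported enrichment. Atp5j2 (ENSMUSG00000038690.15, chr5:145183698-145192062, minus strand) encodes subunit f of the membrane part of ATP synthase, and its stretches are exon 2 (chr5:145187126-145187219) and exon 3 (chr5:145184605-145184649). Capitals mark the bases shared by the rAb and the mAb peak. The last stretch is the rAb peak in the intron of Atp5b after exon 2 (chr10:128084175-128084203), over the small nucleolar RNA gene Snord59a, and all of its bases were shared with the mAb peak.
Atp5j2 exon 2: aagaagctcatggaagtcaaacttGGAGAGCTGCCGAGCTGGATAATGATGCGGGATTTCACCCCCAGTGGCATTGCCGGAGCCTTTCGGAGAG
Atp5j2 exon 3: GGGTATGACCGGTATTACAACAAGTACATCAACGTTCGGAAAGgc
Atp5b intron, Snord59a: TTCTTCTGAGTTTGCTGAAGCCACACTCA

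In the small intestine, 3 of 95 members had a site, 3.16% (exact 95% interval 0.656 to 8.95%), against 2.0% of all protein-coding genes. All 3 belonged to complex V: Atp5a1, which encodes the α subunit of the F1 head, Atp5b and Atp5g3. Complexes I, II, III and IV and Cycs had none. For complex I, 0 of 46 genes allows a share of up to 7.71%, and for complex IV, 0 of 18 allows up to 18.5%. Complex V had 3 of 17 genes, 17.6%, and its exact 95% interval reached 43.4%. The lower limit of this interval lay below the upper limits of complexes I, II, III and IV. The counts therefore do not separate complex V from the other complexes. Together, Atp5a1, Atp5b and Atp5g3 held 9 sites, with a median log2 fold of 4.28 beside 4.27 for the 1107 sites on protein-coding genes. Read numbers behind small intestine sites were not traced, so their folds have no interval here.

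Atp5a1 had 4 small intestine sites. The site in coding exon 3 had a log2 fold of 3.26 with a −log10 p of 3.41. The site in coding exon 9 had 3.99, and that in the 3′UTR had 4.82. The fourth, with 4.73, lay in an intron of the reference transcript that is 5′UTR in another transcript of the gene. The sites were thus spread over the gene up to exon 12, the last, and the weakest lay nearest to the cutoff for −log10 p. Atp5b had 3 sites in neighbouring coding exons, with log2 folds of 3.09 in exon 2, 5.05 in exon 3 and 3.13 in exon 4. The stretch of exon 3 printed above had the highest fold of the 3 and no colon peak over it. Atp5g3 had a coding site with a log2 fold of 4.28 and a 3′UTR site with 5.29, both in exon 5, the last. The 3′UTR site had the highest fold of all member sites, and that in Atp5b exon 2 had the lowest. The other c subunit genes, Atp5g1 and Atp5g2, which encode the same mature protein, had no called peak in any list.

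Of these 9 small intestine sites, 7 overlapped a called colon peak by at least 1 base, and all overlapping colon peaks had a log2 fold between −1.15 and 1.02. Over Atp5a1 exon 3, the small intestine value of 3.26 stood beside −1.15 for mAb and −0.22 for rAb. Over Atp5b exon 4, 3.13 stood beside −0.36 and −0.93. In both places the colon held fewer normalized IP reads than input reads. Over Atp5a1 exon 9, 3.99 stood beside 0.27 for mAb (95% interval −1.17 to 1.68, from 9 IP and 11 input reads) and −0.22 for rAb. Over the coding part of Atp5g3 exon 5, 4.28 stood beside 0.41 for mAb (−1.06 to 1.87) and −0.02 for rAb. The same mAb peak also reached the 3′UTR site. The highest overlapping colon value was in the 3′UTR of Atp5a1, with 1.02 for mAb (−0.43 to 2.54, from 11 IP and 8 input reads). Over Atp5b exon 2, the rAb peak had 0.45 (−0.78 to 1.58), and no mAb peak lay there. None of the colon intervals given here reached the cutoff of 3. No test of the difference between tissues was possible, and the small intestine list held only log2 folds of at least 3.

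**Figure D1:**
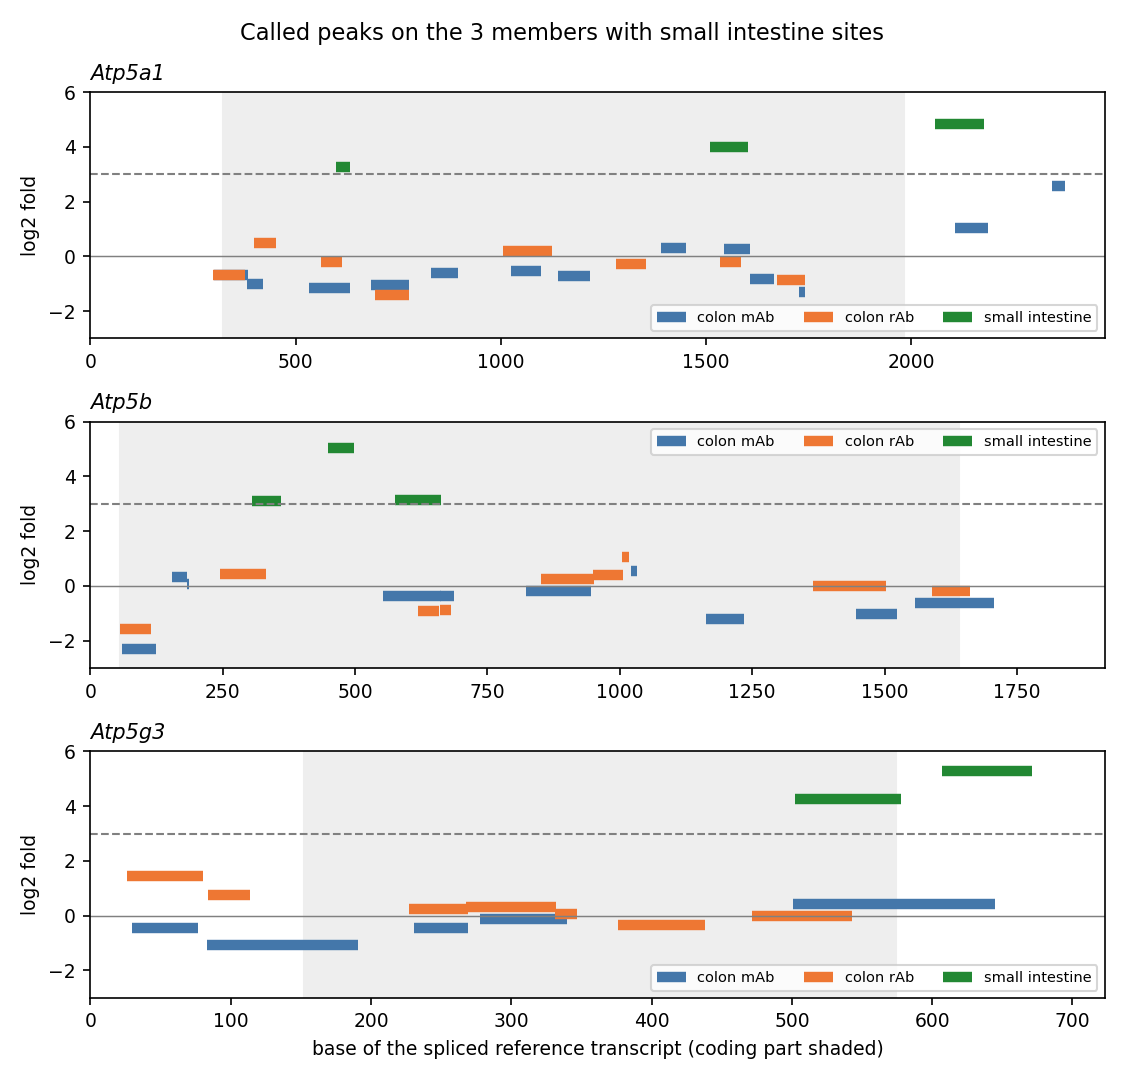
Called peaks along the spliced reference transcripts of Atp5a1, Atp5b and Atp5g3 (x axis, bases from the transcript start, coding part shaded), with their log2 fold of IP over input on the y axis; each bar is 1 peak, centred on its middle and as long as the peak, and the dashed line is the cutoff of 3. All small intestine bars sit above 3, while colon bars sit between −2.30 and 2.56; intron peaks and the 5′UTR site of Atp5a1 are not on these transcripts and are not drawn.

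In the colon, called peaks were common on members and sites were absent. The mAb list had a called peak on 43 of 95 members, 45.3% (exact interval 35.0 to 55.8%), against 22.6% of all protein-coding genes. The rAb list had one on 36, 37.9% (28.1 to 48.4%), against 15.5%. Both lists shared 27 of these genes, 16 were in the mAb list alone and 9 in the rAb list alone. The shared genes were 27 of 43 in the mAb list, against 51.1% of all protein-coding genes called there, and 27 of 36 in the rAb list, against 74.2%. They were 27 of the 52 called in either list, against 43.4%. Together they covered 52 members, and 43 had no peak in any list. No member had a site in either colon list, where 0.579% of protein-coding genes had one for mAb and 0.442% for rAb; 0 of 95 allows a share of up to 3.81%. Of 83 cytosolic ribosomal protein genes, 72 (86.7%) had a called peak in each colon list, a larger share than the members. In the small intestine, 4 of the 83 (4.82%) had a site. Shares of genes here do not take the length or abundance of an mRNA into account. Members were short, with a median reference mRNA of 865 bases beside 2568.5 over protein-coding genes. In bulk cells, fewer cells that carry an RNA and less of it per cell cannot be told apart.

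By complex, complex I had a called colon peak on 13 of 46 genes in each list (28.3%, 15.99 to 43.5%). Complex V had 11 of 17 in the mAb list (64.7%, 38.3 to 85.8%) and 12 of 17 in the rAb list (70.6%, 44.0 to 89.7%). Complex III had 7 of 9 and 4 of 9, complex IV 10 of 18 and 4 of 18, and complex II 2 of 4 and 3 of 4. The intervals of complexes II, III and IV are wide and overlap those of complexes I and V. Complex I and complex V overlapped in the mAb list and just missed each other in the rAb list. These counts include non-subunits: 8 assembly factors in complex I, of which 1 had a rAb peak, and Atp5s in complex V. Intervals without them were not computed, so the narrow miss does not separate the 2 complexes. Members without any peak were Sdhb in complex II, Uqcrb and Uqcrc2 in complex III, Cycs, and 27 genes of complex I. In complex IV they were Cox7a2, Cox7c and 6 of the 7 isoforms known from other tissues, namely Cox4i2, Cox6a2, Cox7a1, Cox7b2, Cox8b and Cox8c. In complex V they were Atp5g1, Atp5g2, Atp5mpl and Atp5s.

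**Figure D2:**
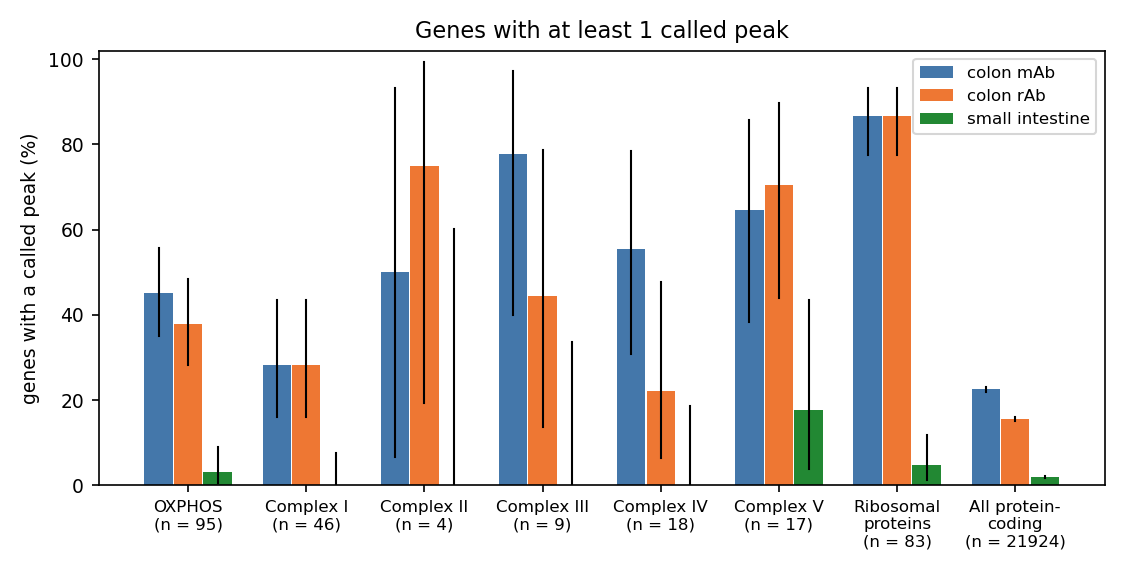
Share of genes with at least 1 called peak (y axis, percent) in the colon mAb, colon rAb and small intestine lists, for the 95 members, each complex, 83 cytosolic ribosomal protein genes and all protein-coding genes; lines are exact 95% intervals, which cover counting error only. The small intestine list holds sites only, and complex V, with 3 of 17 genes, is the only complex with any there.

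The complex I share of 28.3% in each colon list stood beside 22.6% (mAb) and 15.5% (rAb) of all protein-coding genes. Its 7 core subunit genes of the Ndufs and Ndufv kind, which carry electrons from NADH to ubiquinone, had a called peak on 5 (mAb) and 3 (rAb). Of 31 other (supernumerary) subunit genes and relatives, 8 and 9 had a peak. Ndufa9, a subunit of the peripheral arm, had 1 mAb peak with 1.56 and 4 rAb peaks from 1.65 to 2.24. Ndufa11, which sits in the membrane arm, reached 3.24 in the rAb list at a peak 11 bases long, from 3 IP reads and 1 input read. Widened to 20 bases for the search, the sequence of this peak also occurs elsewhere in the genome. Assembly factors of the Ndufaf kind build complex I and are not part of it. Of these 8 genes, 1 had a peak, Ndufaf2, with 1.24 in the rAb list. All 19 rAb peaks on complex I had a log2 fold above 0, against 92.8% of all rAb peaks on protein-coding genes. The 95% intervals of these rAb folds all included 0. Of the mAb peaks on complex I, 12 of 21 (57.1%) were above 0, against 84.7%.

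Complex II had 8 mAb and 4 rAb peaks, most of them on Sdha, the flavoprotein that oxidises succinate. Sdha held 6 mAb peaks with log2 folds from −0.17 to 1.56. It also held 2 rAb peaks with 0.92 and 3.24, the latter from 3 IP reads and 1 input read. Of complex III, Uqcrh, the acidic hinge protein near cytochrome c1, had 5 mAb peaks. The highest was an intron peak with 2.15, from 3 IP reads and 1 input read, and the others lay between −0.52 and −0.02. The 3 rAb peaks of Uqcrh lay between −0.67 and 0.07. Uqcrfs1, the Rieske iron-sulfur protein, had 3 mAb peaks and no rAb peak. Of these, 1 was at 2.15 (3 IP reads and 1 input read, −1.49 to 7.86) and 2 at 0.56 (3 IP and 3 input reads each). In complex IV, Cox4i1 encodes the ubiquitous form of subunit 4. It had 8 mAb peaks from −1.24 to 1.89 and 3 rAb peaks from −0.46 to −0.10, each of which also overlapped a read-through gene. Cox6b2, an isoform known from testis, had 1 mAb peak with 2.15 in an exon of a non-coding transcript, from 3 IP reads and 1 input read.

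In complex V, all 5 genes of the F1 head (Atp5a1, Atp5b, Atp5c1, Atp5d and Atp5e) had a called peak in both colon lists. They held 31 mAb and 24 rAb peaks, with median log2 folds of −0.36 and −0.10. Atp5a1 had 14 mAb peaks from −1.31 to 2.56 and 8 rAb peaks from −1.42 to 0.48. The highest was a 3′UTR peak of 4 IP reads and 1 input read, downstream of the small intestine site. Atp5b had 12 mAb peaks from −2.30 to 0.95 and 11 rAb peaks from −1.56 to 2.37. Its lowest value in both lists lay in exon 1, and its highest at Snord59a. Atp5c1, which encodes the rotating γ shaft, had 1 mAb peak with 2.37 in an intron, from 7 IP and 2 input reads, whose sequence had 800 near copies in the genome. Its 3 rAb peaks lay in exons 8 and 9, between 0.65 and 1.65. The peripheral stalk, which holds the head still, had a mAb peak on 4 of 4 genes and a rAb peak on 3. Of these, Atp5f1 and Atp5j reached 3.24 in the rAb list in their 5′UTR, and their coding peaks had −0.35 and −0.22. Atp5l, subunit g of the membrane part, had 2 rAb peaks with 3.24, both in introns. Each of these values of 3.24 came from 3 IP reads and 1 input read. Atp5g3 had 5 mAb peaks from −1.06 to 0.41 and 7 rAb peaks from −0.35 to 1.46. The highest had 7 IP and 8 input reads (−0.23 to 3.12) and lay in exon 1, not over the small intestine sites in exon 5. The small intestine list held only log2 folds of at least 3, so the gap to its values is partly set by selection.

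**Figure D3:**
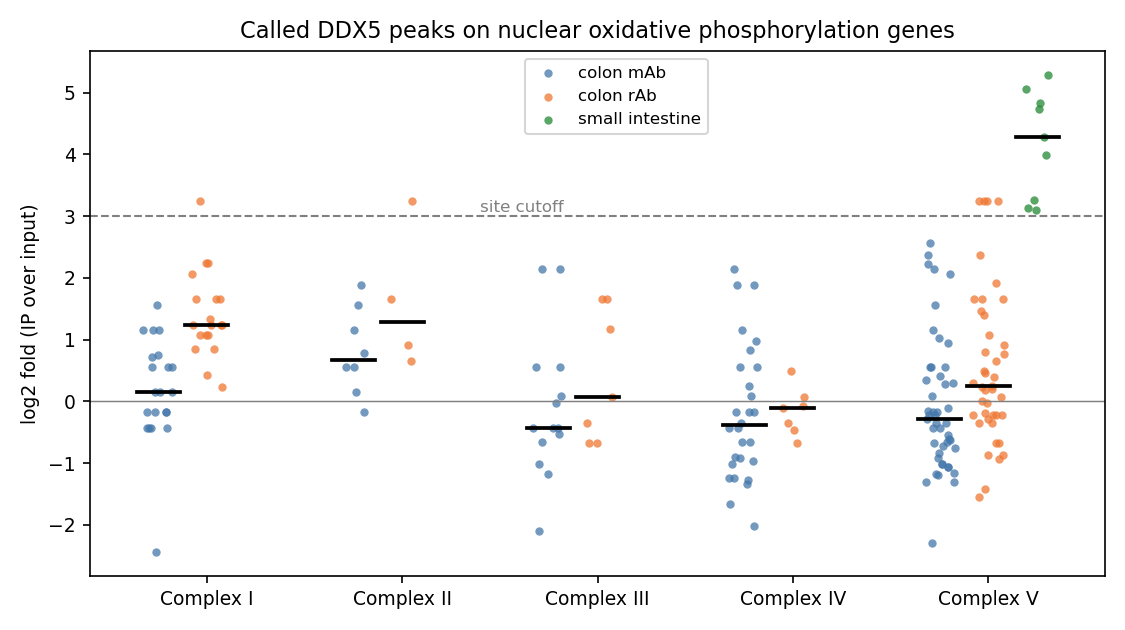
Log2 fold of IP over input (y axis) of every called peak on the members, by complex (x axis) and list; each point is a peak, black bars are medians, and the dashed line is the cutoff of 3. The 9 small intestine points all lie in complex V above the cutoff. Of the colon points, 6 rAb peaks lie above the line at 3.24, but each had a −log10 p of 1.34 and none was a site.

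The folds on members were low for these lists. In the mAb list, 51 of 118 member peaks had a log2 fold above 0, 43.2% (34.1 to 52.7%), against 84.7% of all peaks on protein-coding genes, and the medians were −0.17 and 1.15. In the rAb list, 55 of 79 did, 69.6% (58.2 to 79.5%), against 92.8%, with medians of 0.65 and 2.24. Peaks of 1 gene share a transcript, so the intervals are too narrow as statements on genes. Complexes IV and III had the lowest rAb medians, −0.10 and 0.07, and complexes I and II the highest, 1.24 and 1.29. Peaks of cytosolic ribosomal proteins, whose mRNAs are also short and abundant, had nearly the same values as the members: medians of −0.24 over 369 mAb peaks and 0.65 over 328 rAb peaks, with 39.6% and 74.1% above 0. They held 2 mAb sites and 3 rAb sites. Among all peaks on protein-coding genes, 1.08% (mAb) and 1.74% (rAb) were sites. Over all called peaks the shares were 1.22% and 1.99%.

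**Figure D4:**
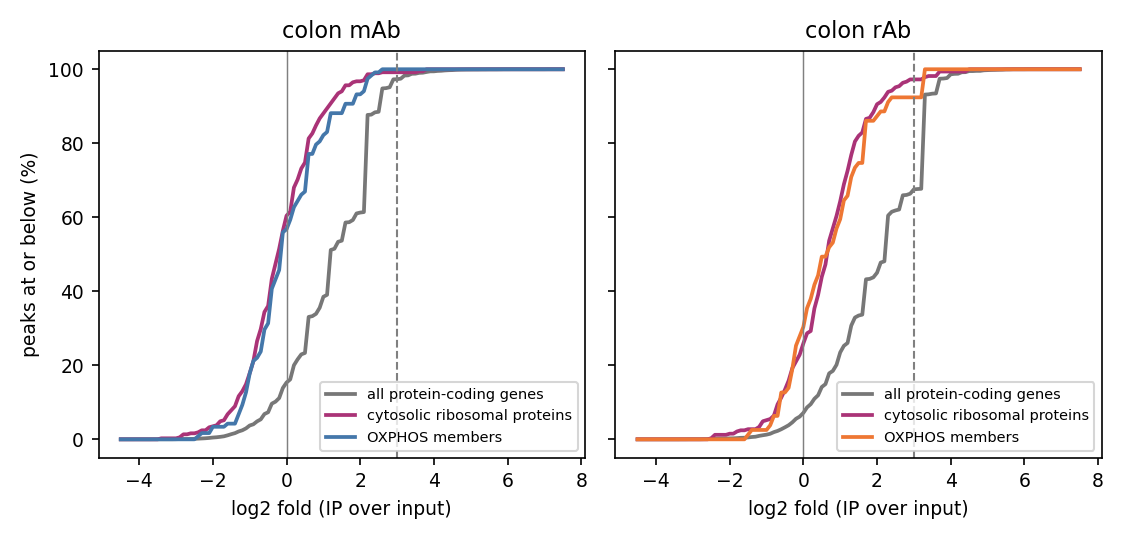
Cumulative share of called peaks (y axis, percent at or below) by log2 fold of IP over input (x axis) in the colon mAb list (left) and rAb list (right), for members, cytosolic ribosomal proteins and all protein-coding genes; the dashed line is the cutoff of 3. Members and ribosomal proteins run together to the left of all genes, and steps in the grey line are peaks with the same few reads.

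The reads known to lie behind the colon folds were few. Whole IP and input reads could be traced from the pair of log2 fold and −log10 p for 99.2% of the mAb peaks and 99.6% of the rAb peaks that had a −log10 p above 0 and below its cap. For peaks with a −log10 p of 0, only the lowest possible reads are known. Such peaks made up 62.7% of the member peaks in the mAb list against 20.2% over protein-coding genes, and 34.2% against 8.22% in the rAb list. For 60 of 118 mAb peaks and 40 of 79 rAb peaks on members, the traced or lowest possible IP reads were 3. Where only the lowest reads are known, the true number can be higher. At 3 IP reads the members had a median of 5 input reads in the mAb list, where all protein-coding peaks had 2, and the medians were 7.5 and 2 in the rAb list. At equal IP reads a lower fold means more input reads by arithmetic, so these medians are no separate result. Peaks with a −log10 p of 0 entered this class through their lowest possible reads. Median input reads were 5 in complex I and 9 in complex V for mAb, and 4 and 12 for rAb.

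The fewest IP reads of any site were 10 for mAb and 7 for rAb. By traced or, failing that, lowest possible reads, 13 mAb member peaks had at least 10 IP reads. Their median log2 fold was −0.15, with 6 of 13 above 0. Among all protein-coding mAb peaks with as many reads (1261 peaks), the median was 1.02, 75.9% were above 0 and 13.6% were sites. In the rAb list, 5 member peaks had at least 10 IP reads by the same count. All had a fold above 0, with a median of 0.81 beside 1.18 over 659 peaks. A member peak with 3 IP reads and 1 input read, the highest fold that 3 IP reads can give here, has a 95% interval of −0.40 to 8.95 in the rAb list.

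Few member peaks were enriched beyond counting error. With the p of the lists adjusted by Benjamini-Hochberg over all called peaks of a list, 1 member peak in each colon list had an adjusted p of at most 0.05 and a log2 fold above 0, against 2.89% of all called peaks for mAb and 6.22% for rAb. These p-values compare the reads of 2 libraries, not conditions. The mAb peak lay in Atp5j2 exon 2, with 22 IP and 7 input reads, a log2 fold of 2.22 (0.94 to 3.69) and a Benjamini-Hochberg adjusted p of 0.0093. The rAb peak over the same exon had 11 IP and 11 input reads and 1.65 (0.31 to 3.0). In Atp5j2 exon 3, mAb had 17 IP and 6 input reads and 2.07 (0.66 to 3.70), and rAb had 6 and 5 reads and 1.92 (−0.06 to 3.97). Both antibody samples thus placed IP above input over the 2 neighbouring exons printed above, and the small intestine list held no site there. In exon 4 the values were −0.17 for mAb and 1.39 (−0.66 to 3.37) for rAb.

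The enriched rAb peak lay over Snord59a, a small nucleolar RNA that guides RNA modification and is cut out of an intron of Atp5b. It had 28 IP and 17 input reads, a log2 fold of 2.37 (1.45 to 3.34) and a Benjamini-Hochberg adjusted p of 2.8e-07. The mAb peak over it had 43 IP and 33 input reads, with 0.95 (0.26 to 1.65) and an adjusted p of 0.15. Reads of the small nucleolar RNA and of the Atp5b intron cannot be told apart at this place. A second Atp5b intron, which holds the microRNA gene Mir677, had a mAb peak with −0.15 and a rAb peak with 0.81 (−0.47 to 2.0).

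Peaks of the colon lists overlapped each other in part. Of the mAb member peaks, 44 of 118 (37.3%) overlapped a rAb member peak, and of the rAb peaks 44 of 79 (55.7%) overlapped a mAb peak. Over all called peaks on protein-coding genes, 17.0% of mAb and 30.3% of rAb peaks overlapped one of the other list. They formed 45 pairs on 19 genes, with median log2 folds of −0.44 for mAb and 0.07 for rAb. Both values were above 0 in 8 pairs and at or below 0 in 18. In 17 pairs mAb was at or below 0 and rAb above it, and in 2 pairs the reverse. Over these pairs, which share transcripts and have few known reads, Spearman's rho was 0.53 and Pearson's r 0.64, given as a description. Both folds were above 1 in 3 pairs, those of Atp5j2 exons 2 and 3 and 1 in Ndufa9 exon 11. In Ndufa9, 4 mAb and 3 rAb IP reads gave 1.56 (−1.24 to 5.03) and 1.65 (−1.25 to 4.55). The 2 Ndufa9 peaks shared only 2 bases.

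**Figure D5:**
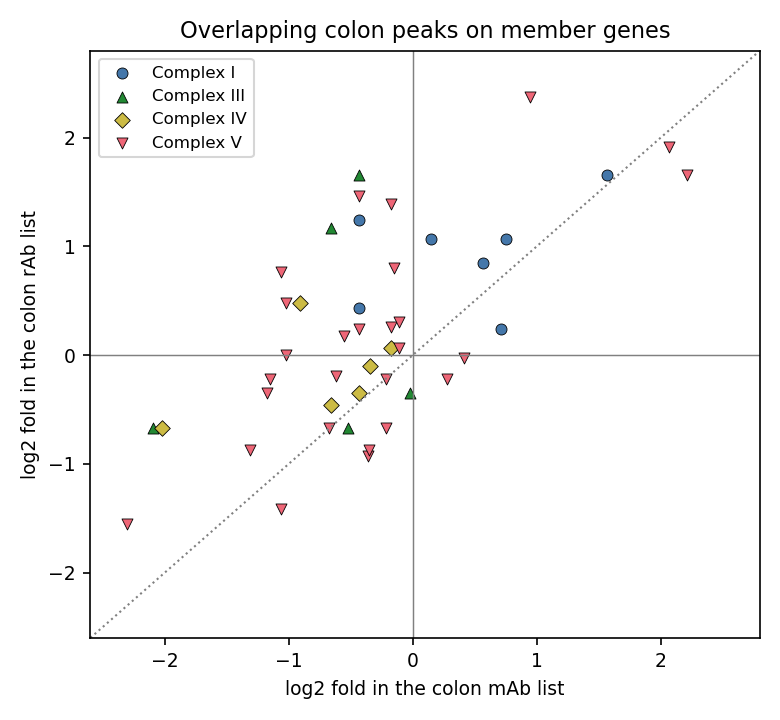
Log2 fold of IP over input in the mAb list (x axis) and the rAb list (y axis) for the 45 pairs of overlapping colon peaks on members; each point is a pair, symbols mark the complex, and the dotted line marks equal values. Most points lie above the dotted line, and the 3 pairs with both values above 1 are on Atp5j2 and Ndufa9.

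Member peaks lay mostly in coding sequence. The share was 82.2% (74.1 to 88.6%) of 118 mAb peaks and 84.8% (74.97 to 91.9%) of 79 rAb peaks, against 51.4% and 57.7% of peaks on all protein-coding genes. Introns held 6 mAb and 4 rAb member peaks. In the small intestine, 6 of 9 member sites were coding, 2 in a 3′UTR and 1 in a 5′UTR, beside 36.6%, 9.58% and 8.22% of the 1107 sites on protein-coding genes. By its middle, a coding mAb peak lay in the first part of the reading frame, cut into 3 equal parts, in 50 of 91 cases, with 21 in the middle part and 20 in the last. The rAb peaks were spread evenly, with 22, 23 and 18. These positions were not computed over all protein-coding genes, so whether the lean of the mAb peaks is particular to members was not tested. Median GC content was 57.5% for mAb and 56.3% for rAb member peaks of at least 20 bases, close to 56.1% and 56.0% over protein-coding genes. The 9 small intestine sites had a median of 47.1% beside 59.5%.

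Many members have processed copies in the genome. Peaks shorter than 20 bases were first widened to 20 bases with the sequence beside them. A whole-length exact copy elsewhere was found for 7 mAb, 3 rAb and 0 small intestine member peaks. Near copies, with at least 90% identity, existed for 32, 28 and 4. All 3 small intestine sites of Atp5b had 1 near copy each, and the sites of Atp5a1 had none. The Atp5j2 peaks of exons 2 and 3 had 2 or 3 near copies and no exact one. Reads of near copies can be shared between places, so the values of these peaks are less certain.

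Other genes of the pathway gave a comparison. Of 44 assembly factors outside the rule, mAb had a called peak on 9 (20.5%) and rAb on 6 (13.6%). These shares were near the 22.6% and 15.5% of all protein-coding genes. No assembly factor had a site. Peaks on the assembly factors had median log2 folds of 1.15 and 2.98. Of 15 genes of the tricarboxylic acid cycle and pyruvate dehydrogenase, which supply NADH and succinate to the chain, 13 and 9 had a colon peak, with medians of 1.15 and 2.24 and no site. In the small intestine, 1 of the 15 had a site, Ogdh, the first component of the 2-oxoglutarate dehydrogenase, with 3.90. That is 6.67% of the 15, against 2.0% of all protein-coding genes. Of 6 carriers and channels, 4 (66.7%) had a peak in each colon list, with medians of 0.56 and 0.92. Slc25a3, the phosphate carrier that feeds ATP synthase, had 2 small intestine sites, with 3.09 and 3.52. The assembly factors and the cycle genes thus had colon medians at or above those of all protein-coding peaks (1.15 and 2.24). The carriers and channels, like the members, had medians below those of all protein-coding peaks. None of the 3 comparison groups had a colon site, where 0.579% (mAb) and 0.442% (rAb) of protein-coding genes had one. In the largest group, 0 of 44 allows a share of up to 8.04%, so these groups are too small to show fewer sites.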

How the data were processed

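The deposited peak lists were used as they stood. Per the authors, reads were trimmed with cutadapt 1.9.1, aligned to mm10 with STAR 2.4.0i and handled with SAMtools 1.4.1 (names from the submitters' processing notes), and CLIPper called peaks on the IP library. The authors deposited a log2 fold of depth-normalized IP over input reads and a −log10 p for each peak, the latter capped at 400. Small intestine replicates were merged by the authors with the Irreproducible Discovery Rate. By their names, the colon files merge replicates 1 and 2, yet the labels list a single CLIP sample each. A further list, with 2 columns of values, matched no label and was not used. No list held mitochondrial chromosome peaks.

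Peaks were assigned to GENCODE M21 genes by at least 1 base of overlap on the same strand, with priority to coding sequence, then UTRs, then introns (proximal within 500 bases of an exon). In the colon lists, whole reads were traced from the fold and, within 1%, the p. An input of 1 read stands for 0 or 1. On simulated peaks with a −log10 p above 0, the reads were recovered for 99.1% (mAb) and 98.9% (rAb) of peaks. The simulation used the p formulas of the tracing itself, so it does not check whether the lists used them. It does not cover peaks with a −log10 p of 0. Shares have exact (Clopper-Pearson) 95% intervals and folds exact conditional 95% intervals; both cover counting error only, and PCR reads are not all independent molecules. Copies were sought with BLAST+ 2.17.0, with peaks shorter than 20 bases widened to 20 bases. Python 3.11.15 and SciPy 1.17.1 were used.

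Members and lists were chosen with earlier results of these data known. Named were all members with a site or with peaks in all 3 lists, those with the 5 highest folds or most peaks in each colon list (ties kept, 1 gene not reported here), and members without peaks by complex where 10 or fewer. Alternatives were exon-only peaks, removal of shared or copied peaks and of non-subunits, other cutoffs, joined intervals, stricter overlap and a minimum of 10 IP reads.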

Additional observations from a re-analysis of the deposited data

Results flagged for a closer look

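Of the small intestine sites on members, 2 were singled out because the colon peaks over them in both lists had a log2 fold below 0. The site in Atp5a1 exon 3 had a log2 fold of 3.26 in the small intestine, −1.15 for mAb and −0.22 for rAb. The site in Atp5b exon 4 had 3.13, −0.36 and −0.93. Both sides were selected: the small intestine list held only log2 folds of at least 3, and the colon values were picked for being below 0. A gap between them was therefore fixed by the selection. The difference between tissues was not tested, since each group has 1 list. A colon log2 fold of this kind rests on at least 3 to 19 IP reads.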

How the results depend on the processing

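Of 48 alternative values, 39 stayed within the limits set for the result and 9 moved. With a log2 fold cutoff of 1, or with a Benjamini-Hochberg adjusted p of at most 0.05 and a log2 fold above 0, the members with a site rose from 0 to 1 in each colon list (Atp5j2 for mAb, Atp5b for rAb). With a minimum of 10 IP reads, 100% of rAb member peaks had a log2 fold above 0 (5 of 5). The same minimum raised the overlap with the other colon list to 84.6% of mAb peaks (11 of 13) and 80.0% of rAb peaks (4 of 5). A reciprocal overlap of at least 50% lowered it to 22.0% and 32.9%. The 3 small intestine members had a site under all alternatives run. No paired analysis was possible because the small intestine replicates are merged in the deposited list, and for the same reason leaving out either replicate was not run. Joining intervals within 10 bases, leaving out exact copies, non-subunits, peaks shared with another gene or intron peaks moved no result beyond these limits. Shares by complex were not among the results rerun. Few reads were known to lie behind most colon member folds. By traced or lowest possible reads, 13 mAb and 5 rAb member peaks had at least 10 IP reads.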
